A study of Mus musculus with 183 samples.

Results

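The 24 libraries labelled day 4 measured how fast RNA is lost in mouse embryonic stem cells (mESCs) with and without AVEN. They were chosen by their labels, as every half-life library of day 4, from 47 libraries in the half-life count table and 183 samples in the series. 12 came from clone 5F, which has Aven, and 12 from clone 7E, which lacks it. Each clone was sampled in triplicate after a 6 hr mock treatment with DMSO, called 0 min, and after 120, 240 and 360 min in actinomycin D, which gives 3 libraries for each clone at each time. Both clones had been given 0.1 µM 4-hydroxytamoxifen (4OHT) for 4 days, in serum and LIF, to switch on Cre-ERT2 and remove exons of Skiv2l.

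Clone 5F is labelled Rosa26Cre-ERT2/- and Skiv2lfl/fl. Clone 7E is labelled Rosa26Cre-ERT2/BirA-V6 at the Rosa26 locus, Skiv2l3xFLAG-Avi/3xFLAG-Avi at Skiv2l and Aven-/-, and the cell line list of the study adds Skiv2lfl/fl for it. The lines therefore differ in Aven, in the biotin ligase BirA, in a tag on Skiv2l and in their parental line, and each genotype is a single clone. A difference between them cannot be assigned to Aven alone. The study calls its replicates technical, so the p-values below measure only the spread between these samples.

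SKIV2L is the helicase of the cytoplasmic Ski complex, which unwinds mRNA and feeds it to the exosome for degradation from the 3′ end, in particular where ribosomes are stalled. AVEN is a partner of SKIV2L that binds RNA and has been linked to the translation of structured transcripts. Actinomycin D stops transcription, so that the RNA of a gene then falls at the speed at which it is degraded. In mESCs the mRNAs of transcription factors and signalling inhibitors are typically short-lived and those of metabolic enzymes and ribosomal proteins long-lived.

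Aven lies on chromosome 2 (GRCm38, 112492964 to 112634573, plus strand) and has 6 exons with 4735 nt. The 2 Cas9 target sites of the knockout are shown because they say which part of the RNA can still be counted. The sites were found in GRCm38, are written 5′ to 3′ on the plus strand, and the capitals mark the PAM.
Exon 3, coding sequence, chr2:112625181-112625200: gctgaggagaaagaatgggaTGG
Exon 6, 3′ UTR just behind the stop codon, chr2:112630912-112630931: agagtgcctgaagcaaatgcTGG
The cuts lie 5731 bases apart and enclose 611 exonic nt, or 12.9% of the exonic sequence, so most of the Aven RNA could still have been counted.

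The targeted genes were counted first. Both were low in clone 7E in every library, and Skiv2l did not fall in the clone 5F libraries labelled day 4. In the mock libraries, Aven was at 33.6, 32.1 and 35.4 CPM (counts relative to all counts in genes of a library) in clone 5F and at 1.55, 1.30 and 2.02 CPM in clone 7E. Over all times, Aven spanned 32.1 to 52.1 CPM in the 12 libraries of clone 5F and 0.760 to 2.02 CPM in the 12 of clone 7E. These ranges do not overlap. Skiv2l in the mock libraries was at 153, 132 and 144 CPM in clone 5F and at 13.8, 13.1 and 12.3 CPM in clone 7E. Over all times Skiv2l spanned 132 to 205 CPM in clone 5F labelled day 4, against 147 to 217 CPM at day 0, and 10.5 to 13.8 CPM in clone 7E, against 31.2 to 40.8 CPM at day 0. Counts of the whole gene include the exons that Cre leaves, so they check the deletion of Skiv2l only in part. Clone 7E thus had little RNA of both genes, and the share of a difference that belongs to Aven and the share that belongs to Skiv2l cannot be told apart.

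All 8 mESC markers were expressed in both clones, with a summed mock level of 3033 to 3127 CPM in clone 5F and 2622 to 2707 CPM in clone 7E. The 5 primitive endoderm markers summed to 78.6 to 81.6 CPM in clone 5F and 11.4 to 11.9 CPM in clone 7E, and the 3 neural markers to 31.7 to 35.0 and 59.0 to 62.5 CPM. The summed levels of the trophoblast, mesoderm, 2-cell-like and fibroblast markers were at most 8.45 CPM, and 0 of the defining markers were at 0. The part that these marker levels have in the results below was not tested. Each library held 26485103 to 33018045 counts in genes, so depth differed little between the clones.

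Of 53380 genes in the table, 17627 had enough counts to be tested. The median half-lives of the clones were close once they were scaled as in the study, which sets the median gene of the clones equal at each time. The median half-life, from a line through log counts, was 290.0 min in clone 5F and 292 min in clone 7E. With the replicate numbers 1, 2 and 3 fitted alone it was 288, 279 and 265 min in clone 5F and 284, 279 and 274 min in clone 7E, so the ranges overlap. Across the 17263 genes whose RNA fell in both clones, the half-lives had a Spearman correlation of 0.890 between the clones, which is given across genes that share their libraries.

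Clone 7E held less mRNA per spike-in RNA than clone 5F throughout, so the overall level is not visible with that scaling. ERCC spike-ins are artificial RNAs added to each RNA sample. In the mock libraries the ratio of mRNA counts to spike-in counts was 304, 329.7 and 322 in clone 5F and 144, 143 and 145 in clone 7E, and clone 7E had 0.451 times the ratio of clone 5F. At 360 min it was 137, 148 and 106 in clone 5F and 69.5, 68.8 and 52.8 in clone 7E, which is 0.488 times. The clones did not overlap at any time, and each difference had p = 0.100 in a two-sided exact permutation test, the smallest that 3 against 3 libraries can give. In bulk samples, fewer cells and less RNA per cell cannot be told apart. As a share of the mock level, 61.4% of mRNA was left at 120 min in clone 5F and 72.3% in clone 7E (p = 0.300, exact permutation test), 52.2% and 61.7% at 240 min (without overlap, p = 0.100), and 40.9% and 44.3% at 360 min (p = 0.500). Clone 7E was higher in each of the 3 same-numbered pairs at each of these times. Scaling each library by its own spike-ins moved the median decay difference to 0.028 log2 per hour, from -0.0020, in the direction of slower decay in clone 7E, and the differences below are relative to that shift.

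**Figure D1:**
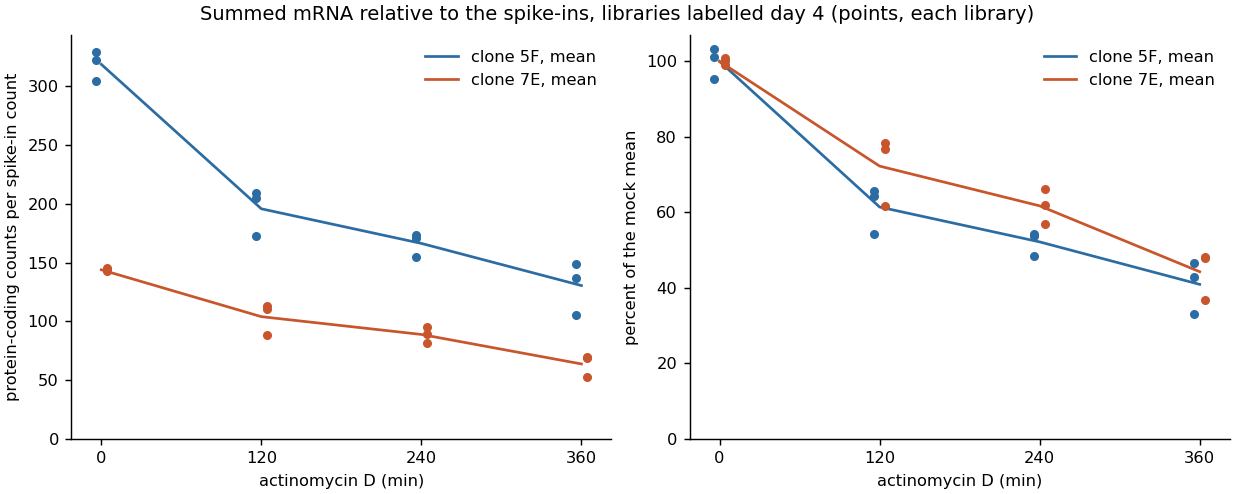
Ratio of mRNA counts to ERCC spike-in counts (one panel) and the same in percent of the mean of the clone's mock libraries (the other panel) against minutes of actinomycin D. Points are the libraries labelled day 4 of clone 5F and clone 7E, and lines join their means. The 3 libraries of clone 7E lie below the 3 of clone 5F at each time, at 0.451 to 0.534 times their mean, while in percent of mock the clones overlap at 120 and 360 min.

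The decay rate was compared gene by gene as the difference of the slopes of the clones in log2 per hour, where a positive value means slower loss in clone 7E. 19 genes were lost more slowly in clone 7E (0.108% of the genes tested) and 4 faster (0.0227%), at an adjusted p under 0.05 by the quasi-likelihood test of edgeR after Benjamini-Hochberg correction. At an unadjusted p under 0.05 there were 531 slower and 896 faster genes. Scaled by the spike-ins of each library, the counts were 30 slower and 0 faster. 13 of the 19 slower genes belonged to the 10% of genes with the steepest loss in clone 5F at day 0. The median half-life of the 19, from the edgeR slopes, was 106 min in clone 5F and 136 min in clone 7E. Median half-lives of called sets, deciles and families below also come from these slopes. These calls rest on few libraries, as leaving out a replicate left 0 to 6 slower and 0 to 2 faster genes, and they rest on the last time, as no gene was called without the 360 min libraries and 61 slower and 5 faster were called without the mock libraries.

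Libraries with the same replicate number at the same time deviated together, and the comparison within replicate number and time, as a replicate block, called many more genes. It called 1839 genes slower (10.4%) and 1795 faster (10.2%) in clone 7E, and all 19 and all 4 above were among them. Scaled by the spike-ins of each library, this fit called 2745 slower and 63 faster, so most of the faster calls are relative to the median gene of the clones. The slower set had a median half-life of 149 min in clone 5F and 179 min in clone 7E, and the faster set 529 and 383 min. A block on the replicate number alone, shared by all times, left 5 slower and 0 faster genes.

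Lefty1 (chromosome 1, 180935022 to 180938400, plus strand), a secreted antagonist of Nodal signalling, had one of the largest differences. At 360 min it kept 4.07%, 4.06% and 4.52% of its mean mock level in clone 5F and 9.36%, 10.2% and 10.3% in clone 7E. Every library of clone 7E held more than any library of clone 5F. Its half-life was 79.0 min (76.5 to 81.7, ± 1 SE of the slope) in clone 5F and 106 min (103 to 109) in clone 7E, a difference of 0.19 ± 0.030 log2 per hour (SE, edgeR adjusted p = 0.00722), and the replicate numbers taken alone gave 0.16, 0.19 and 0.22 log2 per hour. Its mock level was lower in clone 7E, with 5831, 5757 and 7221 normalized counts in clone 5F and 3663, 3439 and 3565 in clone 7E.

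Ifrd1 (chromosome 12, 40201567 to 40248504, minus strand), a transcriptional coregulator whose mRNA is a known target of nonsense-mediated decay through an upstream open reading frame, was close behind. At 240 min it kept 14.7%, 15.3% and 15.1% of its mock mean in clone 5F and 23.2%, 24.0% and 23.1% in clone 7E, and at 360 min 6.43%, 6.11% and 7.16% in clone 5F and 15.4%, 13.6% and 15.6% in clone 7E. The clones did not overlap at either time. Its half-life was 94.0 min (90.2 to 98.1, ± 1 SE of the slope) in clone 5F and 134 min (126 to 144) in clone 7E, and the decay difference was 0.19 ± 0.036 log2 per hour (edgeR adjusted p = 0.0311). The mock levels were 6069.5, 6231 and 5953 normalized counts in clone 5F and 6572, 6841 and 5821 in clone 7E, which overlap.

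Some of the slower genes encode regulators of transcription and chromatin. Tle4 (chromosome 19, 14448150 to 14598051, minus strand), a Groucho-family corepressor, kept 10.8%, 9.94% and 9.03% of its mock mean in clone 5F and 17.9%, 16.7% and 15.7% in clone 7E at 360 min, without overlap, and its half-life moved from 109 to 143 min between clone 5F and clone 7E (difference 0.13 ± 0.018 log2 per hour, edgeR adjusted p = 0.00437). Lin9, a subunit of the MuvB complex of cell cycle genes, went from 94.7 to 122 min (adjusted p = 0.0321). Epc2, of the NuA4 acetyltransferase complex, went from 78.6 to 95.0 min (adjusted p = 0.0365). Gpbp1, a promoter-binding factor, went from 109 to 145 min (adjusted p = 0.0311). Med4, a Mediator subunit, and Kdm6a, a histone demethylase, were also called, with differences of 0.12 ± 0.023 and 0.10 ± 0.019 log2 per hour, and they are named here after their values were seen.

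Dyrk1a (chromosome 16, 94570010 to 94695517, plus strand), a protein kinase, kept 7.96%, 7.32% and 7.08% of its mock mean in clone 5F and 13.7%, 12.9% and 12.2% in clone 7E at 360 min, without overlap, and had a half-life of 97.7 min in clone 5F and 124 min in clone 7E (edgeR adjusted p = 0.00722). Ska3, a kinetochore protein, kept 9.93%, 8.32% and 8.81% in clone 5F and 17.4%, 16.6% and 17.3% in clone 7E at 360 min and had a difference of 0.15 ± 0.024 log2 per hour (adjusted p = 0.00895). Zmynd19, a zinc finger protein, kept 5.79%, 5.13% and 5.96% in clone 5F and 11.8%, 11.1% and 10.6% in clone 7E at 360 min and had a difference of 0.17 ± 0.025 (adjusted p = 0.00473). Both genes also separated the clones without overlap. Siah1b, an E3 ubiquitin ligase, Ext1, which builds heparan sulfate chains, and D230025D16Rik had differences of 0.14 ± 0.027, 0.13 ± 0.026 and 0.12 ± 0.025 log2 per hour, with adjusted p-values of 0.0321, 0.0319 and 0.0422.

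Of the remaining slower genes, named after their values were seen, Ube2g1 (a ubiquitin-conjugating enzyme), Mat2b (a regulatory subunit of methionine adenosyltransferase), Enox1 and Lgr4 (a receptor that enhances Wnt signalling) had differences of 0.12 ± 0.023, 0.11 ± 0.024, 0.10 ± 0.019 and 0.100 ± 0.020 log2 per hour. Pcdh17, a protocadherin, had the largest estimate, 0.27 ± 0.050, on 66, 70 and 74 counts in the mock libraries of clone 7E. Under each library's own spike-ins, Epc2, Dyrk1a and Tle4 did not pass, with adjusted p-values of 0.0634, 0.0550 and 0.138, whereas Lefty1, Ifrd1 and Zmynd19 did.

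The faster genes were long-lived in clone 5F. Mthfd2 (chromosome 6, 83305691 to 83325908, minus strand), an enzyme of mitochondrial folate metabolism and a target of ATF4, kept 64.1%, 63.5% and 59.6% of its mock mean in clone 5F and 41.8%, 44.5% and 45.6% in clone 7E at 360 min. Glipr2 (chromosome 4, 43957401 to 43979118, plus strand), a Golgi-associated protein, kept 55.6%, 53.6% and 61.8% in clone 5F and 35.6%, 33.0% and 39.5% in clone 7E. In both, every library of clone 7E lay below every library of clone 5F. The half-life of Mthfd2 was 580.5 min (505 to 683, ± 1 SE of the slope) in clone 5F and 307 min (299 to 316) in clone 7E (difference -0.091 ± 0.017 log2 per hour, edgeR adjusted p = 0.0311). That of Glipr2 was 439.8 and 242 min (-0.11 ± 0.022, adjusted p = 0.0336), and that of the septin Sept10 953 and 375 min (-0.098 ± 0.020, adjusted p = 0.0491). The lysosomal protease gene Ctsh, called with a difference of -0.21 ± 0.040, had 38, 27 and 50 counts in the mock libraries of clone 7E. With each library's own spike-ins none of the 4 passed, and the adjusted p-values of Glipr2, Sept10, Mthfd2 and Ctsh were 0.286, 0.700, 0.781 and 0.197.

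**Figure D2:**
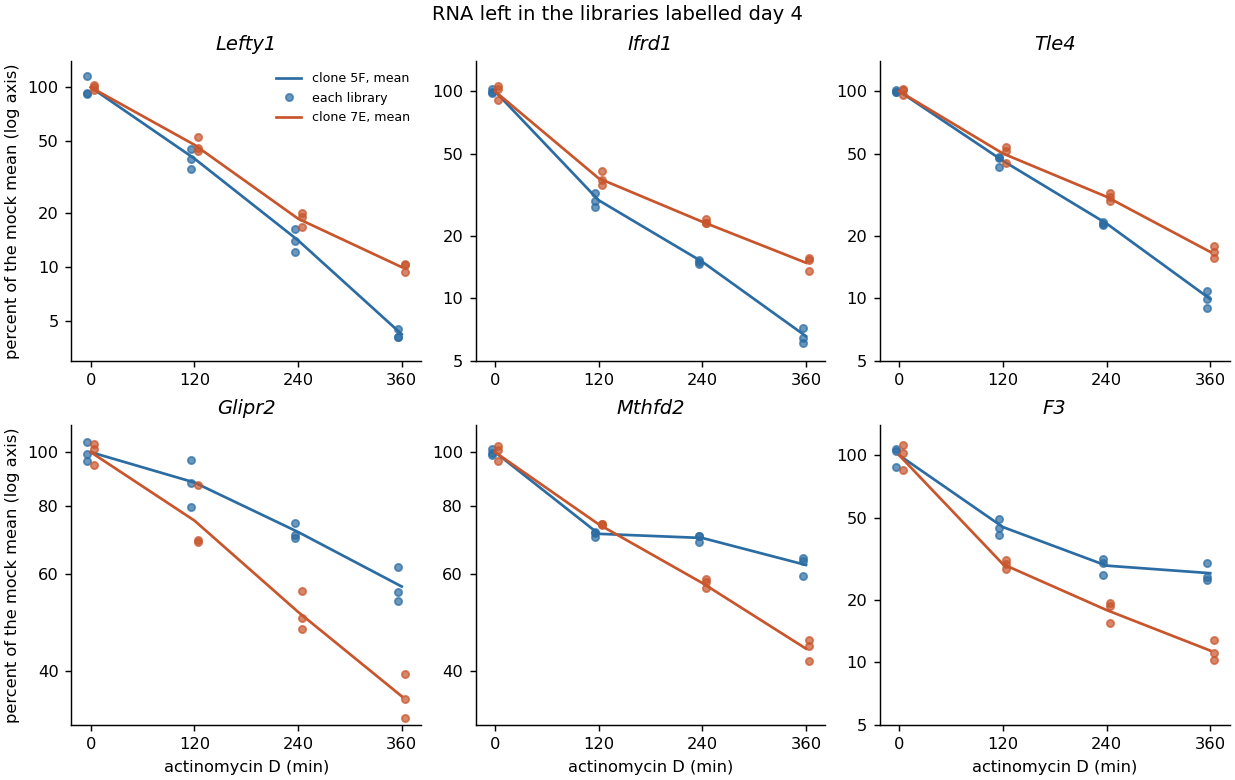
RNA left of Lefty1, Ifrd1, Tle4, Glipr2, Mthfd2 and F3 in each library labelled day 4, in percent of the mean of the clone's mock libraries (vertical log axis), against minutes of actinomycin D, with lines through the means. At 360 min the libraries of clone 7E lie above those of clone 5F for Lefty1, Ifrd1 and Tle4 and below them for Glipr2, Mthfd2 and F3.

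Many of the slower genes shared a sequence feature that the comparison did not use. Of them, 12 of the 19 (63.2%) held TGTANATA, the form of the Pumilio site, in the 3′ UTR, against 24.1% of the 13750 tested genes with a 3′ UTR of at least 50 nt. The motif was searched on the transcript strand only, in the transcript with the longest coding sequence of Gencode M21. It can overlap by at most 2 letters with the other motif searched, TATTTAT, the core of AU-rich elements. The match nearest the stop codon is shown for the 6 named slower genes that have one, 5′ to 3′ on the transcript strand with GRCm38 coordinates, and the capitals mark the motif.
Ifrd1, chr12:40203292-40203299, minus strand: ctacttctaaTGTATATAagcttttaga
Zmynd19, chr2:24960884-24960891, plus strand: gggagagataTGTATATAttgtaaagta
Ska3, chr14:57806591-57806598, minus strand: ttgttgttatTGTACATAatgtaaaata
Epc2, chr2:49551511-49551518, plus strand: tcctgggaaaTGTAAATAtttttaatga
Tle4, chr19:14448445-14448452, minus strand: tcaagaactgTGTAGATAaactttattg
D230025D16Rik, chr8:105252729-105252736, plus strand: tacagattttTGTAAATAatgacttttg
Lefty1, Lin9, Siah1b, Gpbp1, Ext1, Dyrk1a, Glipr2, Sept10 and Mthfd2 had no match, which says only that these letters are not in the UTR searched.

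The larger set from the replicate block showed the same order, in that 42.2% of the slower genes and 15.6% of the faster genes carried TGTANATA. Since long UTRs hold more of any motif, and the median 3′ UTR was 1341 nt in the slower set, 679 nt in the faster set and 979 nt over all genes, the shares were also read within bands of UTR length. In UTRs of at least 50 and under 500 nt, 19.1% of the slower, 6.74% of all and 3.79% of the faster genes had the motif. From 1000 to under 2000 nt the shares were 43.1%, 27.4% and 20.3%, and at 2000 nt or more 59.8%, 48.7% and 44.3%. The order was the same in each band. TATTTAT was less unequal, in 35.8% of the slower, 22.1% of the faster and 27.5% of all genes.

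The motif and a short half-life went together, so genes were also set side by side within classes of half-life taken from clone 5F at day 0. In the short-lived class the median decay difference was 0.064 log2 per hour for 447 genes with the motif and 0.062 for 792 without it. The block called 193 of these 447 genes and 237 of these 792 slower. Among genes of this class with a 3′ UTR of at least 50 nt, 44.9% of the slower and 36.1% of all had the motif. The median 3′ UTR was 1793 nt in the genes with the motif and 901 nt in those without it. In the middle class the median difference was 0.011 for 2727 genes with the motif and -0.0053 for 8523 without, but the former were also shorter-lived, at 246 against 322 min in clone 5F at day 0. The part that half-life has in the difference by motif was not tested further.

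**Figure D3:**
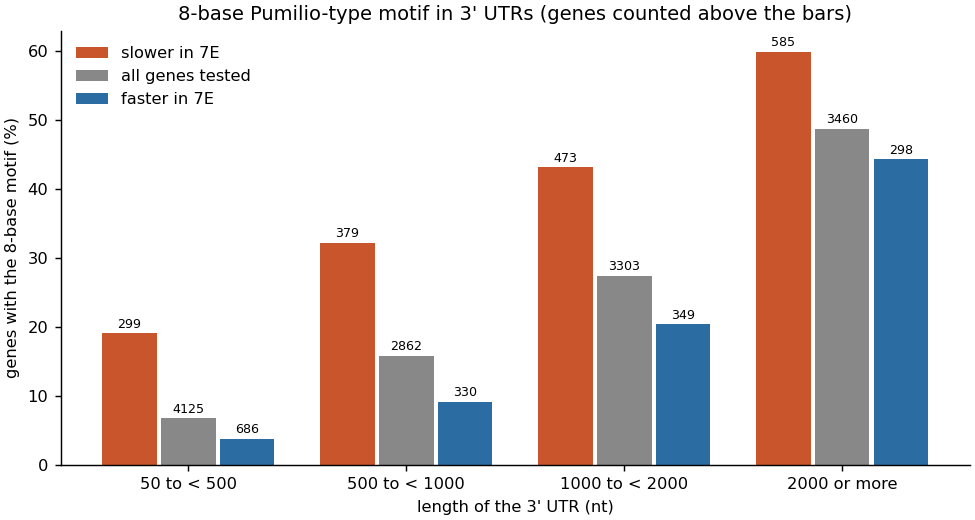
Percent of genes with TGTANATA in the 3′ UTR (vertical axis) by 3′ UTR length in nt, for the genes slower in clone 7E, all genes tested and the genes faster in clone 7E in the fit with the replicate block within each time, with the number of genes in each group above its bar. The share is highest in the slower and lowest in the faster genes in each of the 4 bands of length, from 19.1%, 6.74% and 3.79% in the shortest to 59.8%, 48.7% and 44.3% in the longest.

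More genes passed the test at the later times. With each time compared to mock on its own, 0 genes had more (0%) and 7 less RNA left (0.0397%) in clone 7E at 120 min by edgeR, 28 (0.159%) and 9 (0.0511%) at 240 min, and 428 (2.43%) and 125 (0.709%) at 360 min. At 120 min, 576 genes had more and 419 less left at an unadjusted p under 0.05, and DESeq2 called 4 and 11. With the replicate block the counts of more and less left were 227 (1.29%) and 439 (2.49%) at 120 min, 942 (5.34%) and 1095 (6.21%) at 240 min, and 1955 (11.1%) and 2004 (11.4%) at 360 min. Without the block but scaled by the spike-ins of each library, they were 0 and 0, 50 and 1, and 210 and 6, while the median gene shifted to 0.28, 0.29 and 0.17 log2 at the 3 times. 27 of the 28 genes with more left at 240 min also had more left at 360 min. In the short-lived class described below the median difference in RNA left was already 0.12 log2 at 120 min, and it was 0.21 at 240 and 0.34 at 360 min.

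Of the 7 genes with less left at 120 min, the following are named after their values were seen. The p53 targets Mdm2, Plk2 and Btg2 had -0.49 ± 0.090 log2, -0.68 ± 0.13 log2 and -0.58 ± 0.11 log2 at 120 min, with edgeR adjusted p-values of 0.0487, 0.0487 and 0.0487. For Plk2 the sign had turned at 360 min, to 0.55 ± 0.13 log2 (adjusted p = 0.0246). Prdm14, a pluripotency factor, was at -0.54 ± 0.10 log2 at 120 min (adjusted p = 0.0487), and Aven itself at -1.37 ± 0.20 log2 on few counts in clone 7E. Nppb, a natriuretic peptide, had under 100 counts in the mock libraries of each clone. Scaled by the spike-ins of each library, none of the 7 passed at 120 min.

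The following genes with less or more left in clone 7E at 360 min are named after their values were seen. F3, tissue factor, kept 30.1%, 26.0% and 24.9% of its mock mean in clone 5F and 10.2%, 11.1% and 12.9% in clone 7E at 360 min, without overlap (-1.24 ± 0.17 log2, edgeR adjusted p = 2.47e-04). Ccn2, a matricellular target of YAP, was at -0.94 ± 0.17 log2 and Herpud1, of ER-associated degradation, at -0.89 ± 0.13 log2. Sgk3, a kinase, was at -0.73 ± 0.18 log2 and Hbegf, a growth factor, at -0.79 ± 0.16 log2. Among those with more left were Ppp1r10, a regulatory subunit of protein phosphatase 1, at 1.03 ± 0.24 log2, and the transcription factor Tal1 at 1.29 ± 0.29 log2. Gm42418 and Lars2 had larger estimates, 3.01 ± 0.69 log2 and 1.80 ± 0.49 log2, but Gm42418 overlaps ribosomal RNA sequence, and the libraries were depleted of rRNA.

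Under the study's scaling the clones differed at the ends of the range of half-lives. That scaling sets the median gene of the clones equal at each time, so the likeness in the middle is no result. Relative to the median gene, short-lived RNAs lived longer and long-lived RNAs shorter in clone 7E. Genes were ordered in deciles by their slope in the 11 libraries of clone 5F at day 0, which do not enter the day 4 comparison. In the shortest-lived decile the median half-life was 96.5 min in clone 5F and 106 min in clone 7E, and 1383 of 1763 genes had a positive difference. In the longest-lived decile it was 708 and 519 min, and 367 of 1763 genes had a positive difference. The median difference fell at each step, from 0.058 log2 per hour in the first decile over 0.0053 in decile 5 to -0.036 in the last.

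The replicate numbers taken alone gave 0.053, 0.047 and 0.059 in the first decile and -0.036, -0.028 and -0.033 in the last, so the order did not depend on one of them. When the classes were set by clone 7E at day 0 instead, the short-lived class was at 0.051 and the long-lived class at -0.034 log2 per hour. Scaled by the spike-ins of each library, the first decile was at 0.094 and the last at -0.0073, and the median was positive in the first 8 deciles. The replicate block called 462 slower and 12 faster genes in the first decile and 3 and 341 in the last, which is 26.2% slower and 19.3% faster, beside 10.4% and 10.2% over all genes. These calls follow the median by decile and are relative to the median gene of the clones.

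**Figure D4:**
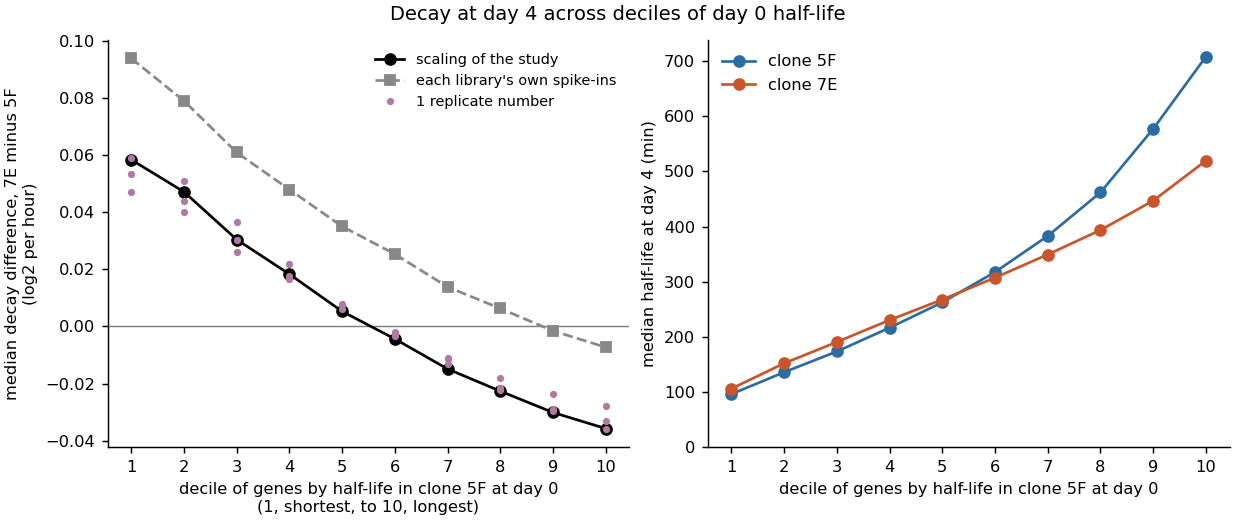
Median decay difference between the clones in log2 per hour (one panel) and median half-life in min of clone 5F and clone 7E (the other panel) in deciles of genes ordered by their slope in clone 5F at day 0, with small points for 1 replicate number each. The difference falls from 0.058 in the shortest-lived to -0.036 in the longest-lived decile with the study's scaling and from 0.094 to -0.0073 with each library's own spike-ins, where it stays positive in the first 8 deciles.

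Gene families are described by their counts and medians beside all genes tested, whose median was -0.0020 log2 per hour. Shares called by the replicate block in a family, slower then faster, stand beside 10.4% and 10.2% of all genes tested. Housekeeping families of long-lived mRNAs lay below the median of all genes, as did long-lived genes of any kind. Deciles 8, 9 and 10, with median half-lives of 462, 577 and 708 min in clone 5F, were at -0.023, -0.030 and -0.036. The block called 22.7%, 33.7% and 19.3% of them faster. The median was -0.038 for 81 nuclear-encoded genes of the respiratory chain, of which 3 were positive, and -0.038 for 38 proteasome subunits, of which 0 were positive. Between clone 5F and clone 7E the median half-life of the first went from 675 to 459.5 min and of the second from 532 to 402 min. For 85 cytosolic ribosomal proteins it went from 491 to 377 min, and for 19 glycolytic enzymes from 612 to 434 min. None of these genes passed without the block, and with it 60, 32, 46 and 11 of the 4 families were called faster and 0, 0, 2 and 0 slower, beside 10.2% and 10.4% of all genes tested. With each library's own spike-ins their medians were -0.0091, -0.0082, -0.00088 and -0.0020, against 0.028 over all genes.

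In these families and the translation factors with TOP mRNAs, the 15 members named for their abundance, 3 a family, all had negative estimates with the study's scaling, and 7 of them (Atp5b, Pkm, Psmd2, Psmc6, Rpl8, Eef2 and Eef1a1) turned positive with own spike-in scaling, with at most 0.019 log2 per hour. The replicate block called 13 of them faster, and without it none passed. The others were Eef2, the translocase of the ribosome and the most abundant of its family, with half-lives of 404 min in clone 5F and 379 min in clone 7E, the order in which pairs of half-lives are given from here on, and the proteasome ATPase Psmc6, with 373 and 338 min (adjusted p = 0.0598 and 0.0629 with the block). Cox4i1, a subunit of cytochrome c oxidase that stayed negative, kept 62.4%, 64.3% and 72.6% of its mock mean in clone 5F and 51.2%, 54.2% and 59.3% in clone 7E at 360 min, and had half-lives of 603 and 424 min. Aldoa, the glycolytic aldolase, had half-lives of 615 and 434 min, Psmd1, a subunit of the regulatory particle of the proteasome, of 494 and 382 min, and Rps3, a protein of the small ribosomal subunit, of 569.7 and 432 min. Their adjusted p-values with the replicate block were 1.02e-05, 6.14e-06, 2.01e-05 and 5.69e-05 in edgeR, and without it 0.475, 0.567, 0.366 and 0.734. Of the 17 translation factors with TOP mRNAs, 0 had a positive difference, and their median was -0.029 log2 per hour, or 0.00046 with each library's own spike-ins.

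Families of regulators lay above the median gene, as did short-lived genes of any kind. Deciles 1 and 2, with median half-lives of 96.5 and 136 min in clone 5F, were at 0.058 and 0.047 log2 per hour. The block called 26.2% and 27.1% of them slower. In clone 5F the median half-life was 119 min for the Zfp mRNAs and 80.8 min for the immediate early genes below. The part that half-life has in the family values was not tested. Of 370 Zfp mRNAs, many of them for Krüppel-associated box repressors, 286 had a positive difference, with a median of 0.036 log2 per hour, and the replicate block called 89 slower and 4 faster (24.1% and 1.08%). Genes with any symbol that begins with Zfp, a wider set of 377, made up 4.95% of the slower and 0.223% of the faster genes of that fit and 2.14% of all genes tested. The median was 0.041 for 27 immediate early genes, with 7 slower and 2 faster under the block (25.9% and 7.41%). Mycn, a MYC-family transcription factor, kept 4.61%, 5.33% and 3.03% of its mock mean in clone 5F and 7.18%, 7.86% and 7.02% in clone 7E at 360 min, without overlap, and had half-lives of 80.7 and 96.2 min (adjusted p = 0.538 without and 1.36e-04 with the block). Klf6 and Dusp6, the other abundant members, had half-lives of 78.3 and 79.7 min and of 62.1 and 65.4 min.

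Genes of the formative and primed state, which mESCs switch on as they leave naive pluripotency, had the highest median of the 26 families, 0.079 log2 per hour over 15 genes. 11 were positive, 1 passed without the block (Lefty1), and the block called 8 slower and 2 faster (53.3% and 13.3%). Lefty2, the paralog of Lefty1, was at 0.071 ± 0.033 and Otx2, a transcription factor of the formative state, at 0.084 ± 0.058, with adjusted p-values of 5.76e-04 and 0.0452 under the block. The ± values here and below are SEs of the fit without the block, in which neither gene passed. The most abundant member, Dnmt3b, a de novo DNA methyltransferase with long-lived mRNA, went the other way, with half-lives of 631 and 479 min. In the mock libraries 11 of these genes were lower and 1 higher in clone 7E, where 19.4% of all genes tested were lower and 20.2% higher. Among 23 naive pluripotency regulators the median was 0.013, and the block called 7 slower and 3 faster (30.4% and 13.0%). None of the 23 passed without the block. Klf4 was at 0.14 ± 0.059 (adjusted p = 4.25e-08 with the block). Pou5f1 was at -0.027 ± 0.019 (adjusted p = 0.785 without and 0.00217 with the block), and at 0.00065 with each library's own spike-ins.

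Cholesterol synthesis mRNAs lay above the median gene although they were of middling half-life. The median of 21 genes was 0.026 log2 per hour and the median half-life went from 250.4 to 319 min. The replicate block called 9 slower and 0 faster (42.9% and 0%). Hmgcs1, an early enzyme of the pathway, kept 39.1%, 36.2% and 42.8% of its mock mean in clone 5F and 50.4%, 48.3% and 53.6% in clone 7E at 360 min and had half-lives of 249 and 358 min, without overlap at 360 min. Sqle, a later enzyme chosen after its values were seen, was at 0.094 ± 0.020 log2 per hour. In the mock libraries 17 of the 21 genes were lower in clone 7E and 3 higher.

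The genes of the integrated stress response, in which ATF4 raises amino acid supply and folate metabolism when eIF2α is phosphorylated, split by half-life while nearly all began from a higher level. In the mock libraries 24 of 28 were higher and 1 lower in clone 7E. Atf4 itself had 6324, 6492 and 6285 normalized counts in clone 5F and 12855, 12448 and 11195 in clone 7E at mock, without overlap. At 360 min it kept 7.58%, 6.86% and 7.25% of its mock mean in clone 5F and 12.4%, 11.7% and 12.2% in clone 7E, and its half-life was 97.5 min (94.4 to 101, ± 1 SE of the slope) in clone 5F and 122 min (117 to 127) in clone 7E (difference 0.12 ± 0.027, edgeR adjusted p = 0.0567 without and 5.13e-10 with the replicate block). Its short-lived companions Ifrd1, Cebpg and Atf5 were at 0.19 ± 0.036, 0.078 ± 0.068 and 0.053 ± 0.047 log2 per hour. The enzymes that ATF4 induces went the other way, with Mthfd2 at -0.091 ± 0.017, Psat1, of serine synthesis, at -0.039 ± 0.017, and Gpt2 and Aldh18a1, of alanine and proline synthesis, at -0.085 ± 0.018 and -0.072 ± 0.015. Of the family, 1 gene was called slower and 1 faster without the block, and 6 and 11 with it (21.4% and 39.3%).

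The p53 targets also began higher, with 15 of 20 higher and 1 lower in clone 7E at mock, and their median decay difference was 0.026 log2 per hour. The block called 7 slower and 1 faster (35% and 5%). Their median difference in RNA left, with the study's scaling, was -0.29 log2 at 120 min, -0.028 at 240 min and 0.12 at 360 min. Its sign thus turned with time, which 1 slope does not show. Trp53inp1, an autophagy and stress protein, kept 17.3%, 14.9% and 19.9% of its mock mean in clone 5F and 25.3%, 23.3% and 27.4% in clone 7E at 360 min, without overlap, and had half-lives of 137 and 182 min. Mdm2, the ubiquitin ligase for p53, was at 6185, 6303 and 5817 normalized counts in clone 5F and 11324, 11459 and 9753 in clone 7E at mock and had half-lives of 89.3 and 94.9 min (adjusted p = 0.938). In the endoplasmic reticulum chaperones the median was -0.021, and in the heat shock proteins -0.019, and with each library's own spike-ins 0.0092 and 0.010, both under the 0.028 of all genes. Hsp90b1 had half-lives of 771 and 537 min, Hspa9, the mitochondrial chaperone, of 444 and 329 min, and Hspa5, or BiP, of 343 and 410.2 min.

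**Figure D5:**
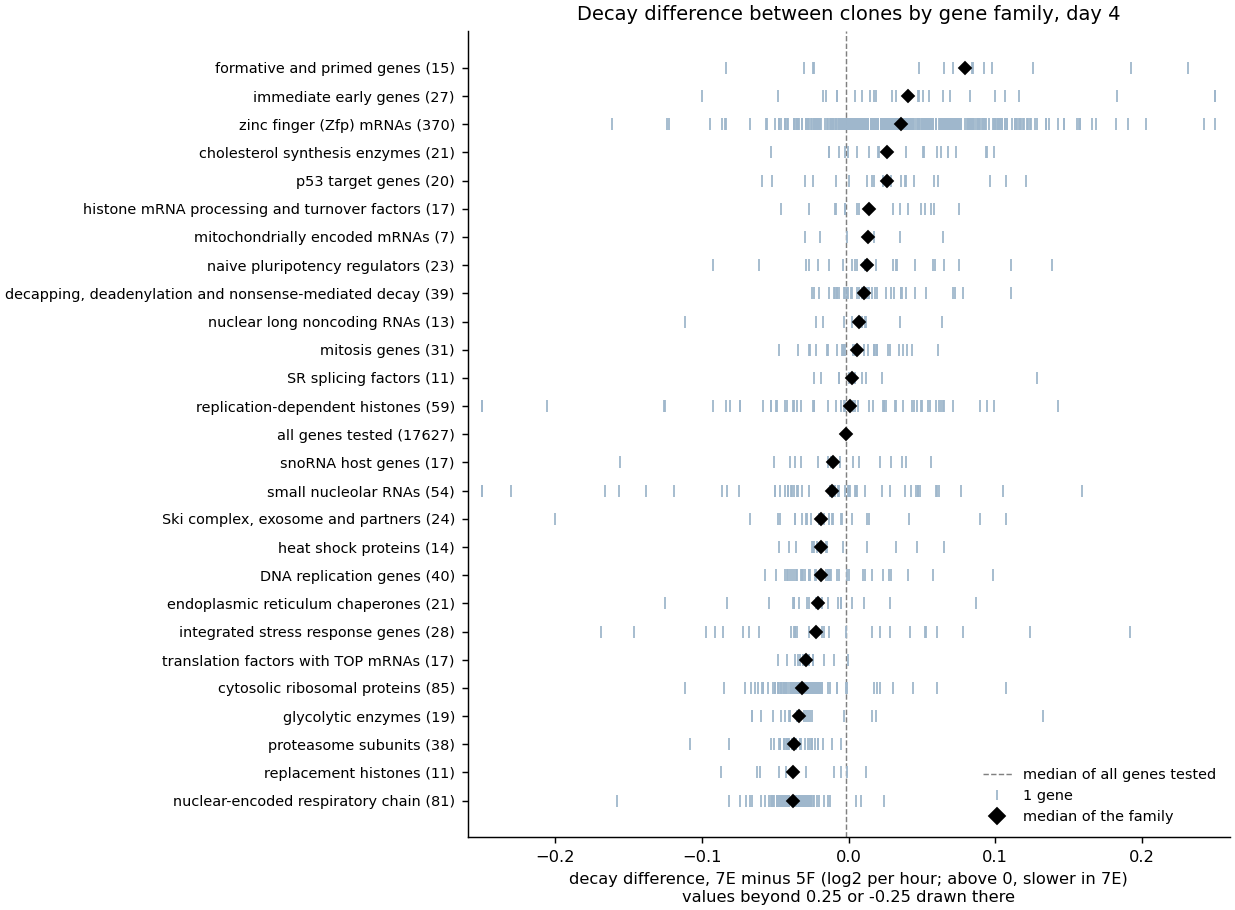
Decay difference between clone 7E and clone 5F in log2 per hour (horizontal axis) for the genes of each family, one tick a gene, with the family median as a diamond and the median of all genes tested as a dashed line. The number of genes is in parentheses, and values beyond 0.25 either way are drawn at the edge. The medians run from -0.038 in the nuclear-encoded respiratory chain to 0.079 in the formative and primed genes, while single genes of most families lie on both sides of the line. With each library's own spike-ins these 2 medians are -0.0091 and 0.11.

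Replication-dependent histone mRNAs carry no poly(A) tail and end in a conserved stem-loop, through which their decay is started. In the genome sequence behind the stop codon, searched to beyond the annotated gene end, a stem-loop was found for 57 of the 59 tested genes. Other genes were searched only in their annotated 3′ UTR, where 0.09% of 13708 had a match, so these shares come from unlike regions. The stem-loops of 2 H1 genes that fell faster in clone 7E and of 2 H4 genes that fell more slowly are shown, chosen after their values were seen. Genes with the same stem-loop as these 2 H1 genes were called in both directions by the replicate block, with Hist1h1a, Hist1h2ai and Hist1h3d slower. Of 12 H4 genes it called 4 slower and 1, Hist1h4a, faster. The 4 shown are therefore no sign that a stem-loop goes with a direction. The stem-loop is in capitals, 5′ to 3′ on the transcript strand with GRCm38 coordinates of the stem-loop.
Hist1h1b, chr13:21779837-21779852, minus strand: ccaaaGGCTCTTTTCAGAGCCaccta
Hist1h1e, chr13:23621782-23621797, minus strand: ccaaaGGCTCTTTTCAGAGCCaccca
Hist1h4k, chr13:21750150-21750165, minus strand: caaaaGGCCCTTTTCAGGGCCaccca
Hist1h4d, chr13:23581950-23581965, plus strand: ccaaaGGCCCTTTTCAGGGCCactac

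Summed over the replication-dependent histone mRNAs, the normalized counts left at 120 min were 24.8%, 20.6% and 24.0% of the mock mean in clone 5F and 25.0%, 21.1% and 22.1% in clone 7E. At 360 min they were 6.12%, 6.71% and 6.85% in clone 5F and 6.76%, 7.59% and 7.74% in clone 7E. At 240 min the summed counts left were 12.4%, 14.9% and 13.7% in clone 5F and 11.6%, 13.5% and 13.8% in clone 7E. The clones overlapped at each time (p = 1.00, 0.6 and 0.2 in order of time, two-sided exact permutation test). With 3 against 3 libraries this test cannot go below 0.1. Of the same-numbered pairs, 2 of 3 were higher in clone 7E at 120 min and 3 of 3 at 360 min, while at 240 min they went both ways. The median decay difference of the 59 genes tested was 0.0010 log2 per hour. The block called 7 slower and 7 faster (11.9% each), which is near the 10.4% and 10.2% of all genes tested. By kind, the median was -0.038 over 6 H1 genes, -0.019 over 14 H2a genes and -0.023 over 16 H2b genes (-0.0091, 0.019 and 0.011 with own spike-ins), but 0.050 over 11 H3 genes and 0.046 over 12 H4 genes. Near-identical histone genes share reads, which were left out by the authors' unique mapping, so single genes are uncertain.

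Among the abundant linker histones, Hist1h1a had half-lives of 131 and 138 min, Hist1h1d of 96.5 and 90.5 min and Hist1h1b of 73.9 and 68.1 min. Hist1h1b kept 8.36%, 9.52% and 9.26% of its mock mean in clone 5F and 5.66%, 5.61% and 5.79% in clone 7E at 240 min, without overlap (-0.67 ± 0.092 log2, edgeR adjusted p = 0.00218). Hist1h1e kept 15.2%, 17.6% and 17.1% in clone 5F and 9.20%, 10.8% and 11.9% in clone 7E (-0.64 ± 0.13 log2, adjusted p = 0.0379), also without overlap. Hist1h4k had half-lives of 71.2 and 79.3 min and Hist1h4d of 85.8 and 93.7 min, with adjusted p-values of 0.00131 and 0.00537 under the replicate block and 0.910 and 0.908 without it. At mock, 16 of the 59 genes were higher and 1 lower in clone 7E, with Hist1h1a at 42195, 38021 and 41598 normalized counts in clone 5F and 63123, 58734 and 57722 in clone 7E. Of the 11 polyadenylated replacement histones, 1 had a positive difference, with a median of -0.038, and H2afx went from 251 to 213 min.

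Of the mRNAs for the decay machinery itself, 24 encode the Ski complex, the exosome and their partners, with a median decay difference of -0.019 log2 per hour (0.011 with own spike-ins) and 2 slower and 8 faster calls under the block (8.33% and 33.3%). For the targeted genes the estimates were negative, with Skiv2l at -0.068 ± 0.029 and Aven at -0.20 ± 0.054 log2 per hour, on the low levels given above (adjusted p = 0.550 and 0.196 without and 0.0152 and 0.00278 with the block). Ttc37, the scaffold of the Ski complex, and Wdr61 were at -0.0041 ± 0.028 and -0.026 ± 0.025, and Mtrex, the nuclear helicase MTR4, at 0.0023 ± 0.026. At mock, Ttc37 was at a log2 difference of -0.34 (edgeR adjusted p = 1.52e-05) and Mtrex at -0.038 (adjusted p = 0.597). Exosc1, a cap subunit of the exosome chosen after its values were seen, was at 0.11 ± 0.028 (adjusted p = 5.69e-05 under the block). None of the 24 genes passed without the block. Of 39 genes of decapping, deadenylation and nonsense-mediated decay, the block called 8 slower and 1 faster (20.5% and 2.56%), with the nuclear exonuclease Xrn2 at -0.024 ± 0.019 (0.0063 with own spike-ins), and the 5′ exonuclease Xrn1 was at 0.019 ± 0.023 (adjusted p = 0.176).

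The small nucleolar RNAs, 54 of which could be tested, had a median of -0.011 log2 per hour (0.026 with own spike-ins) with 2 slower and 1 faster calls under the block (3.70% and 1.85%), and single values spread from -0.31 to 0.16 log2 per hour. The nuclear long noncoding RNAs lay at 0.0074, with Malat1 at half-lives of 629 and 673 min, and 7 mitochondrially encoded mRNAs at 0.013. SR splicing factors (0.0021), mitosis genes (0.0058) and histone mRNA processing factors (0.014) were near all genes tested, while DNA replication genes were at -0.019 (0.010 with own spike-ins) and snoRNA host genes at -0.010 (0.023). Mcm6, a subunit of the replicative helicase, had half-lives of 374 and 311 min. Trim28, a corepressor, had half-lives of 482 and 441 min, Sfpq, a nuclear RNA-binding protein, of 295 and 302 min, Calr, a chaperone, of 634 and 599 min, and Pim3, a kinase with short-lived mRNA, of 61.7 and 67.6 min.

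The mock libraries themselves differed widely, so decay started from different levels in many genes. Of 16433 genes tested, 3326 were higher in clone 7E (20.2%) and 3196 lower (19.4%) at an edgeR adjusted p under 0.05. Own spike-in scaling called 74 higher and 15478 lower, with a median difference of -1.19 log2, as clone 7E held less mRNA per spike-in. Of the 19 slower genes, 4 were higher and 8 lower in clone 7E at mock. The mock libraries enter both comparisons, so the values at mock and the decay differences are not independent.

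The decay differences were set beside the relative binding of each mRNA to SKIV2L and to AVEN from UV crosslinking (CRAC), for 7230 mRNAs tested in both. These are the authors' values from pooled libraries and have no error. According to the paper, SKIV2L binding is its share of the normalized counts of MTR4, SKIV2L and XRN1 on an mRNA. A high SKIV2L ratio is therefore also a low share of MTR4 and XRN1. AVEN counts are set relative to the sum of the same proteins. Across these genes, which share their libraries, the Spearman correlation of the decay difference with SKIV2L binding was -0.371 and with AVEN binding -0.00615. In the quintile of mRNAs with the highest SKIV2L ratio the median difference was -0.022 log2 per hour (0.0067 with own spike-ins), with 81 slower and 625 faster calls under the block (5.60% and 43.2% of 1446). In the lowest quintile it was 0.018, with 345 and 75 (23.9% and 5.19%). Over all 7230 mRNAs the block called 18.9% slower and 18.0% faster. By AVEN the highest quintile was at 0.0030 and the lowest at 0.0025. The mRNAs with a high SKIV2L ratio are also long-lived. Within the longest-lived 3 deciles the highest quintile by this ratio was at -0.032 (792 genes) and the lowest at -0.017 (207 genes). Within the shortest-lived 3 deciles they were at 0.037 and 0.046.

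The same contrast was available at day 0, before 4OHT. 19 of the 19 genes slower at day 4 had a positive difference at day 0 too, with a median of 0.097 log2 per hour, against 0.00092 over all genes tested. Of the genes called with the replicate block, 1617 of 1839 slower and 1398 of 1795 faster genes had the same sign at day 0, beside 11276 of all 17627 genes tested. When the change of the difference between the days was tested itself, by edgeR over 18623 genes, 0 rose and 0 fell, with 206 and 302 at an unadjusted p under 0.05 and 2 and 1 by DESeq2. With the replicate block 189 rose (1.01%) and 289 fell (1.55%). For Lefty1 the difference was 0.0014 at day 0 and 0.19 at day 4 (adjusted p of the change = 0.358 without and 9.51e-04 with the block). For Tle4 it was 0.076 and 0.13 (0.0439 with the block), and for Zmynd19 0.11 and 0.17 (0.400). These genes were named for their day 4 difference, which also enters the test of the change.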

How the data were processed

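The half-life libraries were rRNA-depleted and not stranded. According to the paper's methods, the authors mapped reads to GRCm38 with ERCC sequences by STAR, kept unique reads and deposited whole counts per Gencode M16 gene without normalization, and the submitters' processing notes name STAR, DESeq2 and mm10. Reads of near-identical or overlapping genes are therefore lost or shared. The authors deposited SKIV2L and AVEN relative binding as ratios of pooled, scaled CRAC counts. The same table holds log2 fold changes, adjusted p-values and RPKM of the authors' RNA-seq and CRAC comparisons, and another file their fitted half-lives, none of which was used. The labels give 5 ug/ul actinomycin D and the paper 5 µM.

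Counts were scaled as in the study, by DESeq2 size factors within each time and 1 spike-in factor per time from the 34 ERCC sequences with a mean over 50 counts. Genes were kept by filterByExpr and tested in R 4.3.3 with edgeR 4.0.16 (quasi-likelihood, clone by time in hours), with Benjamini-Hochberg adjustment over all genes. DESeq2 1.42.0 and limma 3.58.1 served as alternatives. Half-lives of single genes come from a line through the log of normalized counts plus 1, as do the medians over all genes and by motif. Median half-lives of called sets, deciles and families come from the edgeR slopes. Over all genes tested these slopes gave 281.6 min in clone 5F and 281.8 min in clone 7E. Symbols and UTRs are of Gencode M21 (53274 genes matched), and 3′ UTR motifs were searched in the transcript with the longest coding sequence. Classes and deciles are of the slopes in clone 5F at day 0. Normalized counts, CPM and percent of mock are values computed here. The number of unused columns of per-sample values was 0.

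Same-numbered libraries of a time deviated together in 12 of 12 pairs (correlation over 10667 genes 0.188 to 0.842, other pairs -0.786 to 0.439), so the numbers pair the libraries within a time, and the replicate block within each time, which called 1839 slower and 1795 faster genes, was added after seeing the data. Pairs of replicates differed with a chi-square per gene of 3.45 or more, so each was counted as its own library. ERCC reads made up 0.284% to 1.79% of the counts. The table held 2 libraries of clone 5F at day 0 and 120 min, and the other replicate was not analysed here.

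On simulated data for the day 4 decay comparison (17627 genes), the fit without the block recovered 24% of changes of 0.1 and 73% of 0.2 log2 per hour with 0 false calls, and the fit with the replicate block 90% and 99% with 11. The simulation gave both clones the same replicate effects within each time and took its spread from a fit with the block. Its changed genes all had at least 100 mean mock counts. It thus favours the block by design and cannot say how many block calls in the data are right. The members, families and lists were chosen with earlier results of these data known. Named are the 12 genes with the largest positive and the 12 with the largest negative decay difference past the threshold with at least 100 mean mock counts in each clone and the same sign without each replicate number, the 3 most abundant members of each family with its called members, and 10 listed genes (Aven, Skiv2l, Atf4, Ifrd1, Calr, Pdia4, Hist1h1a, Trim28, Sfpq and Pim3). Others were named after their values were seen, and some named genes are not reported here. Alternatives covered scaling, tool, filter, samples, pairing, replicates, times, classes and the pseudocount.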

Additional observations from a re-analysis of the deposited data

Results flagged for a closer look

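For 21 of the named genes the difference between the clones itself differed between day 0 and day 4 in the test of the 3-way interaction with the replicate block within each time (edgeR adjusted p under 0.05). Without the block no gene passed this test. Over all 18623 genes tested, the block called 189 risen (1.01%) and 289 fallen (1.55%). Many of the named genes were chosen by their day 4 difference, which also enters this test. The 21 can therefore not be compared with the share over all genes. The changes are given as day 4 minus day 0 in log2 per hour, and a positive value means that decay in clone 7E became slower relative to clone 5F.

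Lefty1 changed by 0.204, Ppp1r10 by 0.122, Ifrd1 by 0.106, Dyrk1a by 0.0615, Tle4 by 0.0521 and Upf1, the helicase of nonsense-mediated decay, by 0.0515. The small nucleolar RNAs Snord17 and Snora73b changed by 0.226 and 0.180. Snord17 had a decay difference of -0.12 at day 0 and 0.11 at day 4.

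In the other direction, the linker histones Hist1h1e and Hist1h1b changed by -0.312 and -0.223. Mthfd2 changed by -0.129, Glipr2 by -0.117, Klf6 by -0.0785, Sgk3 by -0.0734, Sept10 by -0.0624 and Psat1 by -0.0528. The chaperones Hspa9, Pdia4 and Hsp90b1 changed by -0.0547, -0.0459 and -0.0450, the proteasome subunit Psmc6 by -0.0308 and Mcm6 by -0.0249. Hist1h1b had a decay difference of 0.14 at day 0 and -0.074 at day 4, and Hist1h1e one of 0.20 and -0.084. Skiv2l RNA also differed between the days in clone 7E, at 10.5 to 13.8 CPM at day 4 and 31.2 to 40.8 CPM at day 0, and its part in these changes was not tested.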

How the results depend on the processing

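Counts of called genes depended on the fit. For the decay difference (19 slower, 4 faster), each library's own spike-ins gave 30 and 0, TMM 30 and 14, size factors of the day 4 libraries only 24 and 13, no filter 6 and 0, a filter of 100 mock counts 29 and 17, all 47 libraries 37 and 28, limma 6 and 0, DESeq2 57 and 67, a time curve shared by the clones 502 and 173, the replicate block alone 5 and 0, and the replicate block within each time 1839 and 1795. Without mock, 120, 240 or 360 min the counts were 61 and 5, 29 and 13, 4 and 0, and 0 and 0. Leaving out a replicate gave 0 to 6 and 0 to 2. The causes were not tested, except that fits without a time or replicate hold fewer libraries.

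For RNA left (more and less in clone 7E), own spike-ins gave 0 less at 120 min, 50 and 1 at 240 min and 210 and 6 at 360 min. DESeq2 gave 4 and 11, 85 and 36, and 252 less at 360 min. The replicate block alone gave 3 less at 120 min and 10 and 3 at 240 min, and within each time 227 and 439, 942 and 1095, and 1955 and 2004. The filter of 100 mock counts gave 1 more at 120 min, 47 more at 240 min and 198 less at 360 min, and TMM 16 more at 240 min. Leaving out a replicate gave 0 to 5 less at 120 min, 0 to 5 and 0 to 3 at 240 min, and 38 to 251 and 2 to 66 at 360 min.

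With the block within each time, own spike-ins gave 63 faster genes, and 7246 and 22, 7111 and 40, and 4129 and 140 with more and less left at the 3 times. Leaving out a replicate number there gave 977 to 1373 slower and 888 to 1182 faster. For RNA left it gave 15 to 90 and 30 to 267, 372 to 553 and 429 to 646, and 1193 to 1465 and 1158 to 1439. Without only the 360 min libraries of replicate 3 the fit with this block gave 1435 slower and 1460 faster. For RNA left these were 233 and 429, 949 and 1085, and 1508 and 1637. At mock, own spike-ins gave 74 higher and 15478 lower. For the change between days, own spike-ins gave 1 positive, DESeq2 2 and 1, and the block within each time 189 and 289.

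Relative to all genes, the short-lived class was at 0.053 when set by clone 7E and 0.054 with 20% of genes. Family medians relative to all genes were -0.038 (replacement histones), -0.030 (glycolytic enzymes) and 0.041 (Zfp) with own spike-ins, and 0.030 (immediate early), 0.035 (Zfp) and 0.071 (formative and primed) with the block within each time. With a pseudocount of 5 the median half-lives were 325 and 324 min. Of the values for single named genes under alternatives, 2624 kept direction and side of the threshold, 310 lost and 119 gained the call in the same direction, and 135 turned sign where neither value passed the test. All p-values and counts cover the spread of 3 libraries of 1 clone per genotype.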

Other observations

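Transcript length went with the calls. Among the genes called with the replicate block within each time (1839 slower and 1795 faster genes), the median coding sequence was 1737 nt in the slower and 1050.0 nt in the faster genes, against 1422 nt over all genes tested, and the median transcript had 3750.0, 2175 and 2979 nt. Within the short-lived class the slower genes had a median coding sequence of 1593 nt beside 1398 nt over the class, and within the middle class the values were 1785 nt for slower, 1020.0 nt for faster and 1434 nt for all genes. The median share of G and C in the 3′ UTR was 44.6%, 42.7% and 44.9% in slower, faster and all genes. The median mock count was 1343 in the slower, 1614 in the faster and 291 in all genes.

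Some family members that the decay comparison did not name differed at mock. In the mock libraries Slc7a11, the cystine transporter, was at a log2 difference of 1.61 (edgeR adjusted p = 8.55e-06), and Trib3, a pseudokinase induced by ATF4, at 1.24 (adjusted p = 1.03e-12), while the naive pluripotency factor Fgf4 was at -1.05 (adjusted p = 2.47e-12). These 3 genes were chosen after their values were seen, and the differences are relative to the median gene of the clones.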
